A study of Homo sapiens with 6 samples.

Results

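Genes that p53 is known to activate, 9 in all, were followed in RNA-sequencing values of H1975 cells: MDM2, GDF15, SESN1, ZMAT3, TP53I3, FAS, BTG2, PHLDA3 and RRM2B. They were taken by symbol from a table of 27216 rows, and all 9 were found. H1975 is an established human lung adenocarcinoma line with mutant EGFR. The 3 parental samples carry the label of osimertinib (Osi, an EGFR tyrosine kinase inhibitor) for 0 h, and their columns are named for DMSO. The 3 adapted samples had 72 h of Osi at 1000 nM, and the labels say that dying cells had been rinsed off before RNA was taken, so the adapted values describe the cells still attached. The labels give the genotype as WT. They also describe RNase R digestion, which removes linear RNA, before library construction, whereas the study's methods name total RNA and no digestion. The study speaks of independent, repeated experiments for its data in general, but the labels do not say whether these 6 samples came from separate cultures. If they did not, the p-values measure a spread that may be technical.

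p53 is a transcription factor that is stabilized by DNA damage and other stresses and then switches on genes for cell-cycle arrest, repair, apoptosis and metabolic control. One of its targets, MDM2, encodes the ubiquitin ligase that sends p53 to the proteasome, which closes a negative feedback loop. Many of these genes also respond to other factors, so the name of the list describes the genes and not the activity of p53 in these cells.

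A p53 response element is a pair of 10-base elements, each with a conserved C and G around an A/T centre. The 20-base consensus without a spacer was searched in RefSeq windows from 250 bases before to 50 bases after each annotated start (GRCh38.p14). The consensus reads the same on both strands. The search covered windows of 7 of the 9 genes, 15 windows in all. PHLDA3 and RRM2B were not searched, so nothing is said about an element in them. The 3 best-matching genes with an element upstream of a start are shown. Of these, MDM2 and FAS fell in adapted cells and SESN1 rose. GDF15, which fell, also matched 17 of 20 bases, but downstream of a start, and is not shown. Whether a match goes with a direction of change was not tested. Capitals mark the bases that match the consensus, 5′ to 3′ on the strand of the gene.

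MDM2: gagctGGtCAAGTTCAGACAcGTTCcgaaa
FAS: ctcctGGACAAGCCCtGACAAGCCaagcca
SESN1: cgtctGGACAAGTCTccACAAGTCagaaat

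The MDM2 stretch lies at chr12:68808918-68808947 on the plus strand and matched 18 of 20 bases. It is intronic in the 7 of 34 GENCODE v29 transcripts that span it. The FAS stretch lies at chr10:88991304-88991333 on the plus strand and also matched 18 of 20. Of the 13 FAS transcripts that span it, it is intronic in 11 and exonic but not coding in 2. A match this good was present in 0.649% of all 35116 windows. The SESN1 stretch lies at chr6:109009013-109009042 on the minus strand, is intronic in 2 of 7 transcripts and matched 17 of 20, as good as in 5.2% of windows. These shares are per window, whereas the stretches shown are the best of several windows per gene and among 7 genes searched. The shares therefore understate how often such a search finds a match this good. The stretches are matches of letters, and binding was not measured.

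The deposited values were read as log2(FPKM + 1). FPKM is scaled to the length of the transcript and to the mapped fragments of the library. FPKM values below are the linear values behind them. Fold changes on the log2(FPKM + 1) scale understate changes of low genes. The linear values summed to 375342 to 387753 per sample, read depth is unknown, and all 9 genes passed the filter of a mean of at least 1 on the log2 scale. Adapted replicate 1 stood a little apart, with a correlation of 0.991 across rows with each of the other adapted samples against 0.996 between those. The 8 lung epithelial markers, EPCAM, KRT7 and NKX2-1 among them, were all present, with a summed level of 4282 to 4318 FPKM in parental and 4057 to 4379 FPKM in adapted cells. Of 6 leukocyte markers only CD68, a lysosomal protein, reached 1 on the log2 scale. Their summed level was 74.6 to 76.9 FPKM in parental and 14.8 to 29.8 FPKM in adapted cells, nearly all of it CD68, and CD3E was at 0 in all samples. The 6 fibroblast markers summed to 3.04 to 3.16 and 8.59 to 9.32 FPKM, and the 4 endothelial markers to 1.13 to 1.88 and 1.49 to 3.50 FPKM. Such sums hide single markers that moved in opposite directions. Mean PECAM1 fell from 1.35 to 0.063 FPKM and CDH5 rose from 0.156 to 2.39 FPKM. Among the epithelial markers KRT7 rose from 671 to 1422 FPKM and KRT19 fell from 936 to 556 FPKM. The part of these shifts in the results was not tested. In bulk RNA, fewer cells that express a gene and less RNA per cell cannot be told apart.

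The p53 targets did not move as a block, and the rows tested as a whole were split too. SESN1, ZMAT3, TP53I3 and PHLDA3 rose in adapted cells, GDF15, FAS and MDM2 fell, and BTG2 and RRM2B did not pass the test (limma, Benjamini-Hochberg adjusted over 12656 rows, threshold 0.05). The 7 calls out of 9 stand against a background of 56.9% of all rows tested. The 4 that rose stand against 30.7% of rows called higher, and the 3 that fell against 26.2% called lower. SESN1, among the 4 that rose, passed the filter only through its adapted samples. The groups did not overlap in the same 4 and 3 genes, where 66.3% of all rows tested showed no overlap, 35.7% with adapted cells higher and 30.6% with adapted cells lower. The median log2 fold change of the 9 genes was 0.16, against 0.028 over all rows tested. A single-gene exact permutation test of 3 against 3 cannot go below p = 0.1.

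**Figure D1:**
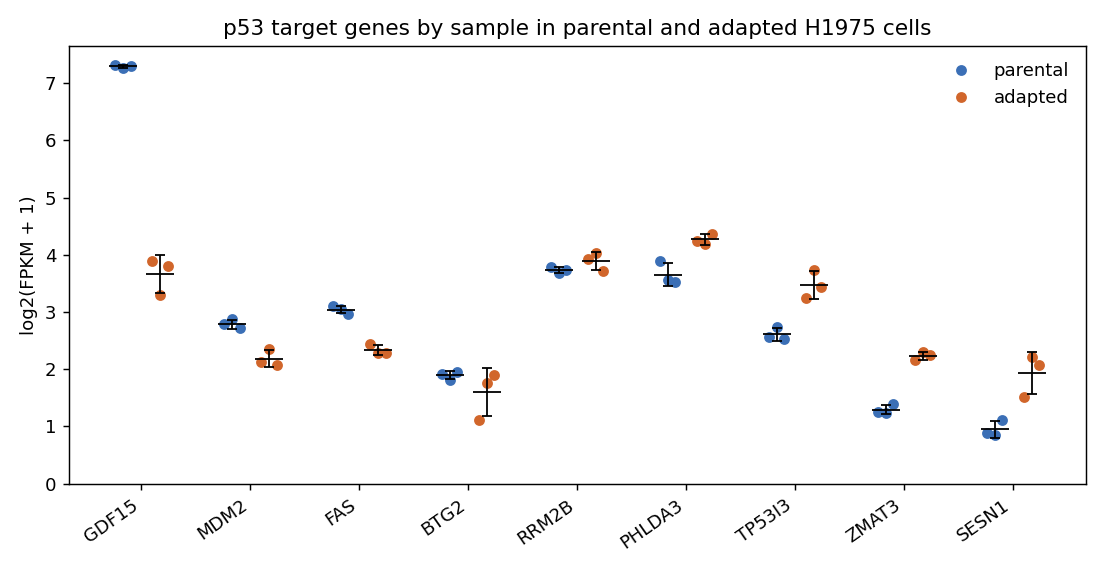
Level of each p53 target in each sample, log2(FPKM + 1) on the vertical axis, with points for the 3 parental and 3 adapted samples and bars for the mean and SD. GDF15 drops from above 7 to below 4, MDM2 and FAS drop by less, SESN1, ZMAT3, TP53I3 and PHLDA3 lie higher in all adapted samples, and BTG2 and RRM2B overlap.

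The largest difference among the 9 genes was in GDF15, a secreted stress cytokine of the TGF-beta superfamily. Its log2(FPKM + 1) was 7.33, 7.27 and 7.30 in parental replicates 1 to 3 and 3.89, 3.29 and 3.81 in adapted replicates 1 to 3. All adapted samples were far below all parental samples, and the adapted samples were also more spread. The log2 fold change was -3.64 (standard error 0.15, adjusted p = 4.35e-06, limma), which placed GDF15 at percentile 0.2 of all rows tested. In linear terms the mean went from 157 ± 2.98 to 11.9 ± 2.71 FPKM (SD, n = 3 each), 13.2-fold lower. GDF15 maps to the plus strand of chromosome 19, from 18374731 to 18389176 (GENCODE v29, GRCh38).

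MDM2, the ubiquitin ligase that restrains p53, was at 2.79, 2.87 and 2.71 in parental and 2.13, 2.35 and 2.08 in adapted cells on the log2 scale. Every adapted sample was lower than every parental sample. The log2 fold change was -0.60 (standard error 0.09, adjusted p = 0.00134, limma), or 1.66-fold lower in mean FPKM. MDM2 lies on chromosome 12 from 68808176 to 68850686, and its annotated exons share 133 bases with exons of CPM and 785 with AC025423.4, both on the other strand, and 439 with the pseudogene AC025423.2 on the same strand. Neither AC symbol has a row among the deposited values, so no level can be given for them. Whether strand was used in counting is not given in the sources used here. CPM itself averaged 3.89 in parental and 3.92 in adapted cells on the log2 scale.

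MDM4, the relative of MDM2 that binds p53 without being a strong ligase, had a log2 fold change of -0.07 (95% interval -0.29 to 0.14, adjusted p = 0.524, limma), and its groups overlapped. Within samples, the level of MDM2 minus that of MDM4 came to 0.42 ± 0.09 in the parental samples and -0.11 ± 0.04 in the adapted ones (SD, n = 3 each, log2 scale, two-sided exact permutation p = 0.1, the smallest that 3 against 3 allow). MDM2 was above MDM4 in every parental sample and below it in every adapted sample.

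FAS, the death receptor that recruits FADD and caspase-8, was at 3.10, 3.05 and 2.97 in parental and 2.44, 2.29 and 2.29 in adapted cells. The groups did not overlap, and the adapted samples lay close together. The log2 fold change was -0.71 (standard error 0.08, adjusted p = 2.57e-04, limma), or 1.79-fold lower in mean FPKM. FAS lies on chromosome 10 from 88990582 to 89015785, and 380 bases of its annotated exons are shared with ACTA2 on the other strand, a gene that averaged 1.38 in parental and 1.21 in adapted cells on the log2 scale.

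TP53I3, an oxidoreductase linked to reactive oxygen species in p53-dependent apoptosis, was at 2.56, 2.73 and 2.53 in parental and 3.24, 3.73 and 3.44 in adapted cells. All adapted samples were higher. The log2 fold change was 0.86 (standard error 0.13, adjusted p = 0.00111, limma), and mean FPKM was 2.00-fold higher. TP53I3 maps to the minus strand of chromosome 2, from 24077433 to 24085861, and its exons share 80 bases with those of FAM228B on the other strand, which averaged 0.76 in parental and 1.12 in adapted cells on the log2 scale. PHLDA3, a pleckstrin-homology protein that inhibits AKT, was at 3.89, 3.55 and 3.52 in parental and 4.25, 4.19 and 4.37 in adapted cells. Parental replicate 1 was the highest of its group but still below all adapted samples. Its log2 fold change was 0.62 (standard error 0.11, adjusted p = 0.00252, limma). PHLDA3 maps to the minus strand of chromosome 1, from 201464383 to 201469237, and its exons share 598 bases with AC096677.2 on the same strand.

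ZMAT3, a zinc finger RNA-binding protein that regulates splicing and mRNA stability, was at 1.25, 1.24 and 1.38 in parental and 2.16, 2.29 and 2.25 in adapted cells. The samples within each group lay close together. Its log2 fold change was 0.94 (standard error 0.08, adjusted p = 1.04e-04, limma), and mean FPKM went from 1.45 ± 0.14 to 3.71 ± 0.22 (SD, n = 3 each). SESN1, a stress-induced sestrin that restrains mTORC1, was at 0.89, 0.84 and 1.11 in parental and 1.51, 2.21 and 2.07 in adapted cells. All adapted samples were higher, with replicate 1 the lowest of them. Its log2 fold change was 0.99 (standard error 0.19, adjusted p = 0.00321, limma), and mean FPKM went from 0.934 ± 0.195 to 2.90 ± 0.926 (SD, n = 3 each), 3.10-fold higher from a low start. The parental mean of SESN1 was 0.95 on the log2 scale, under the filter of 1, so it entered the test only through its adapted samples. With no filter its adjusted p was 0.0107 (limma). ZMAT3 lies on chromosome 3 from 179017223 to 179072279 and SESN1 on chromosome 6 from 108986437 to 109094819, both on the minus strand, and the exons of SESN1 share 363 bases with AL390208.1 on the other strand.

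BTG2, an antiproliferative protein that promotes mRNA deadenylation, was at 1.91, 1.81 and 1.96 in parental and 1.12, 1.76 and 1.90 in adapted cells. Adapted replicate 1 was low and the other adapted samples lay within or just under the parental range. The log2 fold change of -0.30 did not pass (95% interval -0.76 to 0.16, adjusted p = 0.224, limma), and it was -0.06 without adapted replicate 1. BTG2 maps to the plus strand of chromosome 1, from 203305491 to 203309602. RRM2B, the p53-inducible small subunit of ribonucleotide reductase that supplies deoxynucleotides outside S phase, was at 3.78, 3.68 and 3.74 in parental and 3.93, 4.04 and 3.71 in adapted cells. Its log2 fold change was 0.16 (95% interval -0.05 to 0.38, adjusted p = 0.166, limma). Without adapted replicate 3, the 1 adapted sample within the parental range, it was 0.25 and past the threshold (adjusted p = 0.0252, limma).

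CDKN1A, which encodes the CDK inhibitor p21 and is the best-known arrest gene downstream of p53, was added to the description after its values were seen. It was at 3.30, 3.30 and 3.23 in parental and 2.81, 3.52 and 3.45 in adapted cells. The parental samples were tight, adapted replicate 1 was below them and the other adapted samples above them. The log2 fold change was -0.02 (95% interval -0.44 to 0.40, adjusted p = 0.938, limma). Without adapted replicate 1 it was 0.21 and past the threshold (adjusted p = 0.0175, limma), so that sample decides the direction.

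**Figure D2:**
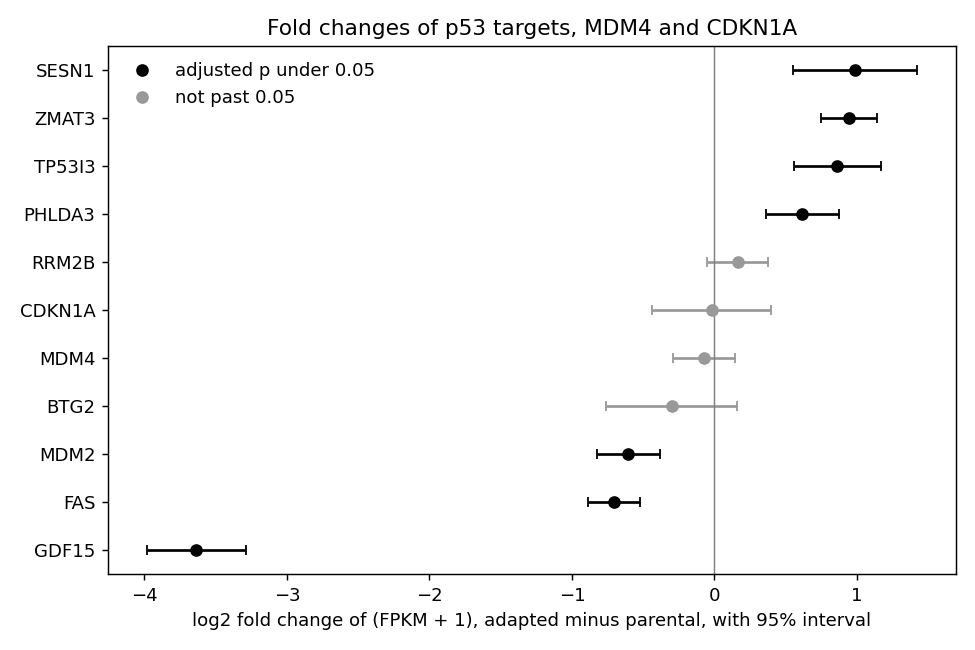
Log2 fold change of (FPKM + 1), adapted minus parental, with 95% intervals from limma, for the 9 p53 targets, MDM4 and CDKN1A. Black points are past an adjusted p of 0.05 and grey points are not. GDF15 at -3.64 stands far from the others, which lie between -0.71 and 0.99.

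By level in FPKM, which is scaled to length, GDF15 was the highest of the 9 genes in parental cells at 157 FPKM, and RRM2B followed at 12.3 and PHLDA3 at 11.7 FPKM, whose ranges overlapped. FAS (7.24 FPKM) came next, MDM2 (5.92) and TP53I3 (5.11) overlapped, and BTG2 (2.72), ZMAT3 (1.45) and SESN1 (0.934) closed the order. In adapted cells PHLDA3 was highest at 18.3 FPKM and did not overlap with the next gene. RRM2B (13.9 FPKM), GDF15 (11.9) and TP53I3 (10.2) followed, each overlapping with its neighbour. FAS (4.06 FPKM), ZMAT3 (3.71), MDM2 (3.57) and SESN1 (2.90) came next and BTG2 last, again with each pair of neighbours overlapping. The SD on the log2 scale was larger in adapted than in parental samples for 7 of the 9 genes.

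Of 21 genes of the same families or complexes as these targets, 19 were tested, 3 rose, 12 fell and 4 did not pass, with a median log2 fold change of -0.28. The 78.9% called stand beside 56.9% of all rows (30.7% higher, 26.2% lower), whose median was 0.028. RRM2, the S-phase counterpart of RRM2B, fell by 1.32 on the log2 scale (adjusted p = 7.87e-04, limma), and RRM1, the large subunit that both small subunits pair with, fell by 1.07 (adjusted p = 1.16e-04). The level of RRM2B minus that of RRM2 came to -1.76 ± 0.03 in the parental samples and -0.28 ± 0.39 in the adapted ones (SD, n = 3 each, log2 scale). RRM2 was named for a fall without overlap between groups. A test of this difference would not be independent of that choice, so none is given. The gap between the small subunits was narrower in every adapted sample.

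PHLDA1 and PHLDA2, relatives of PHLDA3, moved against it. PHLDA1 fell by 1.68 (adjusted p = 6.59e-05, limma) and PHLDA2 fell by 1.22 on the log2 scale (adjusted p = 2.52e-05). PHLDA3 was lower than PHLDA1 in parental cells (difference -1.97 ± 0.12) and higher in adapted cells (0.33 ± 0.31, SD, n = 3 each, log2 scale). In adapted replicate 1 they were nearly equal (4.246 against 4.241). PHLDA1 was named for its fall, and neither gene overlapped between groups. A permutation test of their difference could only return its smallest p, so none is given. Values of SESN2, SESN3, BTG1 and BTG3 are given to complete these families and were chosen after they were seen. SESN2 had a log2 fold change of -0.11 (95% interval -0.29 to 0.07, adjusted p = 0.256, limma), while SESN3 was under the filter at 0.27 in parental and 0.95 in adapted cells on the log2 scale. BTG3 fell by 0.76 (adjusted p = 1.32e-04, limma), and BTG1 had a log2 fold change of 0.12 (95% interval -0.14 to 0.38, adjusted p = 0.398). ZMAT2 rose by 0.42 and ZMAT5 by 0.38. INHBA, an activin subunit of the superfamily of GDF15, rose from 0.16 ± 0.06 to 2.33 ± 0.12 (SD, n = 3 each). Like SESN1, INHBA passed the filter only through the adapted samples. TNFRSF10A, a TRAIL receptor of the superfamily of FAS, fell by 1.05 on the log2 scale (adjusted p = 1.87e-05, limma).

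**Figure D3:**
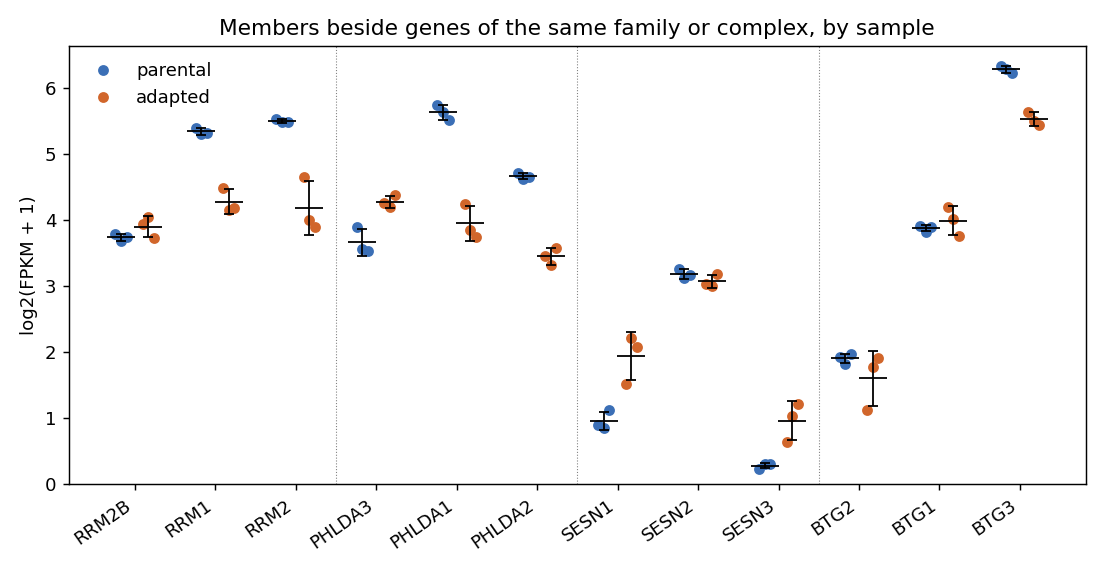
Level in each sample, log2(FPKM + 1), of RRM2B, PHLDA3, SESN1 and BTG2 beside genes of the same family or complex, with points for samples and bars for the mean and SD of the 3 parental and 3 adapted samples. RRM1, RRM2, PHLDA1, PHLDA2 and BTG3 are lower in every adapted sample, whereas PHLDA3 and SESN1 are higher.

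Other p53 targets were also split. Of 60 listed genes, 55 were tested, 17 rose, 22 fell and 16 did not pass, with a median log2 fold change of -0.17. The 70.9% that were called stand beside the 56.9% of all rows. All rows tested were split as well, with 30.7% called higher and 26.2% called lower. The 5 that rose most were TRIM22, an antiviral tripartite motif protein (3.22), TP53INP1, a p53 cofactor that also acts in autophagy (2.58), SUSD6 (1.72), PLK2, a polo-like kinase (1.64), and KITLG, the ligand of KIT (1.61, all log2 fold changes, adjusted p from 2.08e-06 to 1.83e-04, limma). TRIM22 went from 1.88 ± 0.13 to 26.5 ± 7.28 FPKM and TP53INP1 from 2.08 ± 0.05 to 17.8 ± 4.22 FPKM (SD, n = 3 each). PLK2 was tight in both groups, with SDs of 0.04 and 0.02 on the log2 scale.

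The 5 that fell most were PLK3, another polo-like kinase (-1.22), EPHA2, an ephrin receptor (-1.21), CD82, a tetraspanin (-1.20), IER5, an immediate early gene (-1.19), and PMAIP1, which encodes the BH3-only protein NOXA (-1.16, all log2 fold changes, adjusted p from 1.72e-05 to 0.00139, limma). PLK2 and PLK3 therefore moved in opposite directions. Of a list of 16 genes of p53-linked apoptosis, which includes FAS and TP53I3 and shares most of its genes with the list above, 14 were tested, 5 rose and 7 fell, or 85.7% called beside the 56.9% of all rows (30.7% higher, 26.2% lower). BAX, chosen after its values were seen, had a log2 fold change of 1.01 (adjusted p = 4.79e-04, limma), but it is the 1 gene of these lists whose adapted values are off the 6-decimal grid of the table. They return to it when 0.66 is subtracted, and the log2 fold change is then 0.35 (adjusted p = 0.0484, limma).

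Of 22 genes that act on p53 or are related to it, 21 were tested, 3 rose, 6 fell and 12 did not pass, which is 42.9% called beside the 56.9% of all rows. The acetyltransferases CREBBP (0.54) and KAT5 (0.24) and the kinase HIPK2 (0.48) rose (log2 fold changes, adjusted p from 0.00488 to 0.0254, limma). The call of KAT5 was lost without any 1 of the 3 parental samples and without adapted replicate 3. The checkpoint kinases CHEK2 and CHEK1 fell by 1.58 and 1.09 on the log2 scale (adjusted p = 5.78e-05 and 0.0013, limma). TP63, a p53 family member of squamous epithelium, fell by 0.96, and adapted replicate 1 was lowest at 0.42 against 1.31 and 1.32 in the others. The deubiquitinase USP10 fell by 0.43, and RPL11, a ribosomal protein that binds MDM2, fell by 0.34, although reads of ribosomal protein genes can be shared with pseudogene copies.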

How the data were processed

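Values of 6 H1975 samples (3 parental, 3 adapted) were taken from 1 deposited table. The authors deposited log2 values with no named scale, taken here as log2(FPKM + 1). The submitters' processing notes name hg38, Bowtie2 2.1.0, STAR and edgeR without a role. The quantifier and annotation are not given in the sources used here. Columns named for DMSO and Osi were matched to samples by group and replicate number. The test named in the study needs counts, so limma 3.58.1 in R 4.3.3 was used (lmFit, eBayes with an intensity trend, unpaired) on the 12656 rows with a mean of at least 1. In 147 rows the values of 1 group were off the table's 6-decimal grid, and none of the 9 genes was among them.

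The 9 genes and all lists were chosen with earlier results of these data known. Named genes were the 9, MDM4, and in each of 3 lists (other p53 targets, regulators, relatives) up to 5 that rose and 5 that fell most past the threshold without overlap between groups. CDKN1A, BAX, SESN2, SESN3, BTG1 and BTG3 were added after their values were seen. A gene covered by the rule was left out of the lists and is not reported. Exact permutation tests used scipy 1.17.1. Symbols and loci follow GENCODE v29, and promoter windows RefSeq (GRCh38.p14). Same-numbered samples did not deviate together (correlations -0.051, -0.031 and -0.020 over rows tested).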

Additional observations from a re-analysis of the deposited data

How the results depend on the processing

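Alternatives were another pseudocount (0.1), no filter, a stricter filter, quantile normalization, an equal sum per sample, median centring, eBayes with no trend, robust eBayes, the replicate block, leaving out each sample in turn and, added after the data were seen, leaving out the off-grid rows or subtracting their constants. Of 148 values for the 9 genes, 147 kept direction and side of the threshold, and the exception was RRM2B, which was past it without adapted replicate 3 (0.25) and ranged from 0.091 to 0.25. The 7 calls stayed at 7 under the replicate block, and were 7 or 8 when single samples were left out. The stricter filter left 4 of the 9 genes, of which 3 were called, and 4532 rows called of 7693. CDKN1A turned to 0.21 without adapted replicate 1 and ranged from -0.15 to 0.21 when single samples were left out. The count of other p53 targets past the threshold ranged from 29 to 42 when single samples were left out and was 32 under the replicate block. That of regulators ranged from 7 to 10 and that of relatives from 11 to 15. Replicate numbers are shared by label only, so the block is not taken as a pairing. Depth is unknown.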
